A study of Mus musculus with 6 samples.

Results

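Genes for splicing factors and heterogeneous nuclear ribonucleoproteins (hnRNPs) were followed in mouse embryonic fibroblasts with and without Ing1. The group was defined by gene symbol: the SR proteins (Srsf, Tra2), the Clk kinases, the Hnrnp and Ptbp genes, Sf1, Sf3a, Sf3b and U2af, the Snrp and Snrnp genes other than Snrpn, the Prpf genes, Sfpq, Nono, Pspc1 and Arglu1. On the array 77 genes met this rule, of 18069 genes with 1 annotated symbol, and they were read by 99 probes. A single probe read 58 of the genes, 2 probes read 16, and 3 probes read Prpf19, Sf3b3 and Sfpq.

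The cultures were early-passage fibroblasts, each grown from a separate mouse embryo and hybridised alone to a 1-colour CodeLink whole-genome array. In 3 of them, named C4, C3 and B1, a gene-trap cassette inserted in the Ing1 locus had inactivated it. The other 3, named H2, H3 and I2, came from wild-type littermates. No treatment is given for either genotype, and the sources used here name no strain, embryo age or litter for single cultures. The gene trap is carried by every cell of the embryo as far as the labels say, with no tissue-specific promoter or Cre named. Ing1 encodes a PHD-finger protein that binds a histone mark and acts with histone deacetylase complexes, and the arrays were made to search for the genes that depend on it.

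Most vertebrate genes are split by introns, and the spliceosome removes these in steps. The U1 particle marks the start of an intron, SF1 and U2AF mark the branch point and the 3' splice site, and the U2 particle with its SF3A and SF3B complexes replaces SF1 before the U4, U5 and U6 particles join. SR proteins bind exons and mostly favour their inclusion, whereas hnRNPs coat the nascent RNA and often oppose it, and both families adjust the splicing of their own transcripts.

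The upstream sequence of the genes with the largest differences is shown first, because the arrays read these genes as transcripts and the promoter is the stretch from which they start. Of the 77 genes, 67 matched the RefSeq promoter table of build GRCm38.p6 by gene ID. Each was read over 300 bases, from 250 bases before to 50 bases after the annotated start. Arglu1 and Sf3b4, both higher in deficient cells, were among the 10 genes without a match. In the 250 bases before the start of Sfpq (chr4:127021051-127021300, plus strand) and of Srsf2 (chr11:116853095-116853344, minus strand), capitals mark the letters CCAAT and also GGGCGG and TATAAA in either orientation. Overlapping matches run together.
Sfpq: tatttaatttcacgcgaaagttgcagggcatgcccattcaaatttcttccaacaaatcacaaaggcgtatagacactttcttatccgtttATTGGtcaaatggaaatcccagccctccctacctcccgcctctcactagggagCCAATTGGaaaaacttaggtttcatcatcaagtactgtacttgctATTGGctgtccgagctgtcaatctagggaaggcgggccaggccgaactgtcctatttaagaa
Srsf2: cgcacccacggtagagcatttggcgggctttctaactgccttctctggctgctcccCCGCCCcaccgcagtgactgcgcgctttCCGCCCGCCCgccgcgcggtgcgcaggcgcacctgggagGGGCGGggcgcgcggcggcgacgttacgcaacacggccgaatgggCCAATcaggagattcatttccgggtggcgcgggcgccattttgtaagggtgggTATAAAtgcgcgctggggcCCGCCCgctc
The Sfpq stretch held 4 matches to CCAAT and 0 to GGGCGG. The Srsf2 stretch held 1 match to CCAAT, 5 to GGGCGG, and a TATAAA whose first base lay 29 bases before the start. In Srsf3, also among the genes that rose, a TATAAA began 18 bases before the start (chr17:29032631-29032660, plus strand, in capitals).
Srsf3: gagcagggtgcTATAAAtagggcgagggga

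A further element, GCCATTTT, was searched for after the sequences had been seen, because it recurred around the starts of the genes with the highest differences. It lies in the promoters of Sfpq, Srsf2, Hnrnpd and Pspc1, which were all higher in deficient cells, and of Hnrnpc and Tra2a, of which no probe passed the test. The 30-base windows below run 5′ to 3′ on the gene's strand in GRCm38.p6, with the element in capitals: Sfpq at chr4:127021321-127021350 (plus), Srsf2 at chr11:116853124-116853153 (minus), Hnrnpd at chr5:99978921-99978950 (minus), Pspc1 at chr14:56778298-56778327 (minus), Hnrnpc at chr14:52103989-52104018 (minus) and Tra2a at chr6:49264015-49264044 (minus).
Sfpq: gcttgtgtcgtccGCCATTTTgtgctcagc
Srsf2: gtggcgcgggcGCCATTTTgtaagggtggg
Hnrnpd: ttcttccgtcgGCCATTTTaggtggtccgc
Pspc1: tttgaagcagcGCCATTTTgagcgttcggc
Hnrnpc: ggagctcggggGCCATTTTgtgaggagacg
Tra2a: gcggcacgggcGCCATTTTgcctgaacgtg
The element begins 48 bases before the start in Srsf2 and 1 base before it in Hnrnpd. In Pspc1, Hnrnpc, Tra2a and Sfpq it begins 3, 15, 20 and 34 bases after the start. The shares of promoters that hold it were 30.8% (4 of 13) among members that were higher in deficient cells, 4.08% (2 of 49) among the other tested members and 1.77% (169 of 9541) among all genes tested on the array. Since the element was picked from these sequences, the shares are a description and were not tested.

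Fixed motifs were searched on both strands of the same 300 bases. GGGCGG was present in 71.6% of member promoters against 60.9% of all tested genes, CCAAT in 49.3% against 38.7%, CCGGAAG in 29.9% against 16.4%, and TGACG in 52.2% against 29.7%. TATAAA was present in 10.4% of member promoters against 8.75%. It was found in 5 of the 13 higher members (Srsf2, Srsf3, Sf3b3, Hnrnpm and Hnrnpab) and in 2 of the 49 others (Snrnp48 and Snrpa). Its place varied, from 216, 96, 29 and 18 bases before the start in Hnrnpm, Sf3b3, Srsf2 and Srsf3 to 6 after it in Hnrnpab. GCATGCGC was present in 5.97% of member promoters against 5%, TGACGTCA, which contains TGACG, in 5.97% against 3.02%, TTTGGCGC in 1.49% against 0.88%, and TTTCCCGC in 7.46% against 1.95%. Split in the same way, GGGCGG was present in 61.5% of higher members against 71.4% of the others, and CCAAT in 69.2% against 46.9%. CCGGAAG was present in 23.1% against 32.7%, TGACG in 53.8% against 55.1%, and TTTCCCGC in 15.4% against 4.08%. GCATGCGC and TGACGTCA were each present in 0% against 8.16%. These splits were not tested. A match says only that these letters are present in the window.

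Signal was read as normalized intensity, the background-subtracted spot brightness in units of the array's median, so a value of 1 equals the median transcript probe. Good quality flags, given to spots above local noise, covered 55.5% to 62.1% of the 34967 transcript probes per array. The Ing1 probe read 11.7 in H2, 11.4 in H3 and 11.1 in I2, and only 1.38 in C4, 0.930 in C3 and 1.39 in B1. Its log2 difference was -3.23 (limma, adjusted p = 0.000287), so the targeted gene separated the cultures as labelled, although the place of the probe relative to the cassette is unknown. All 12 fibroblast markers examined carried good flags on every array. Lum and Thy1 were the 2 of them that rose. Differences below are log2 deficient minus wild type ± the standard error of the limma fit (n = 3 cultures per genotype), and a probe changed where its Benjamini-Hochberg adjusted p over all 19575 tested probes was under 0.05. Values under 0.57 were set to that floor for the fit, and the values of single cultures are printed as deposited.

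Of the 99 member probes, 88 could be tested, for 73 of the 77 genes. In deficient cells 15 member probes were higher and 1 was lower, each of a different gene, and 57 tested genes had no probe that passed. Of the 16 called probes, 14 carried good flags on all 6 arrays, and the other 2, of Arglu1 and Prpf31, were tested only through the deficient group, where they are high. The called share was 18.2% of the 88 tested member probes, against a background of 6.57% of all 19575 tested probes. Split by direction, the background was 4.94% of probes higher and 1.63% lower. At an unadjusted p under 0.05, 40 member probes passed (45.5%, against 26.2% of all probes), 35 of them higher and 5 lower. All 3 deficient cultures lay above all 3 wild-type cultures in 40 member probes and below them in 4, where such gaps were found in 20.0% and 11.2% of all tested probes. With each gene read by its brightest tested probe, the median difference was 0.25 over members and 0.07 over all genes, and 56 of 73 members were above 0 (76.7%, against 57.3% of all genes).

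**Figure D1:**
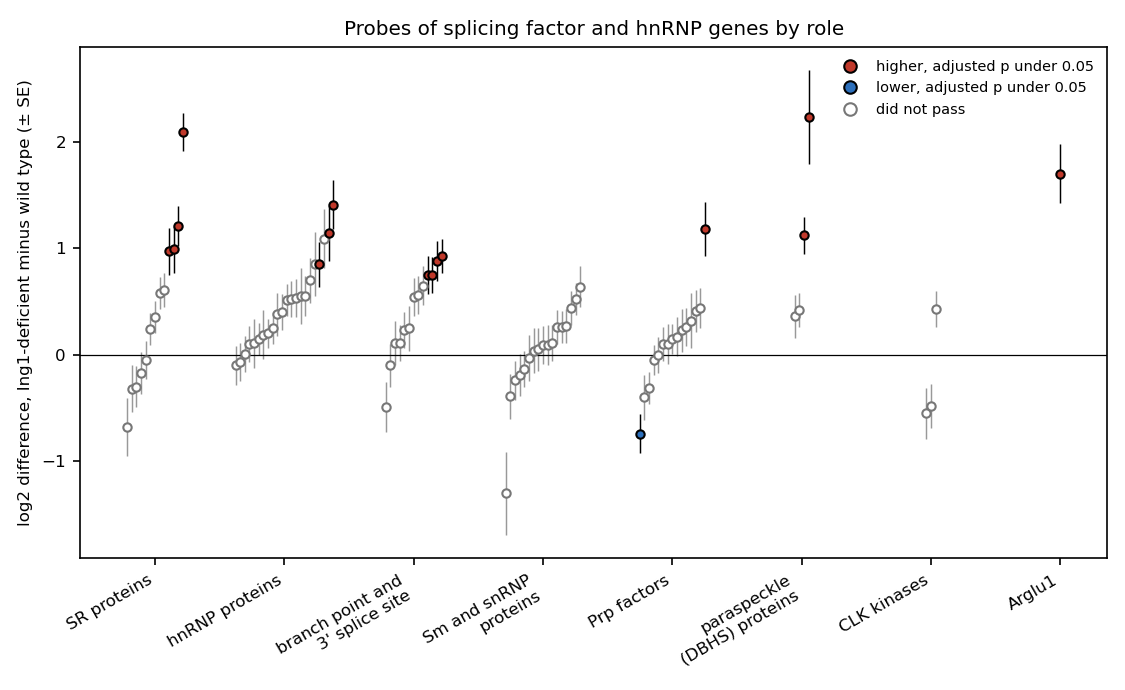
Log2 difference of each tested member probe, Ing1-deficient minus wild type, by the role of its gene; points are limma estimates, bars their standard errors, and filled points passed an adjusted p of 0.05. The 15 filled points above 0 lie among the SR, hnRNP, branch point, Prp and paraspeckle groups and Arglu1, and the lone filled point below 0 is Prpf40b.

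The roles did not contribute evenly. SR protein genes had a median of 0.58 (11 genes tested), hnRNP genes of 0.51 (19 genes), and genes of the branch point and 3' splice site of 0.41 (10 genes). The 15 tested genes of the Sm and snRNP proteins had a median of 0.05, the 11 Prp factors of 0.10, and the 3 Clk kinases of -0.48. The medians of the SR, hnRNP and branch point groups stayed above 0 in the 17 alternative settings of the processing, at 0.47 to 0.62, 0.23 to 0.51 and 0.27 to 0.66. That of the Sm and snRNP group ranged from -0.11 to 0.17 and turned negative in 5 of them, normexp, quantile and cyclic loess processing among these. The variance trend, the lack of a flag filter and the test that the labels name leave these medians as they are, so they could not change a sign. Differences between the role groups were not tested.

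Of the 3 paraspeckle genes, 2 rose in deficient cells (2 of 4 tested probes, against 4.94% of all tested probes). Their DBHS proteins are nuclear RNA-binding proteins that pair with each other and build paraspeckles on the noncoding RNA Neat1. One Sfpq probe (56058) read 31.8, 21.8 and 30.1 in C4, C3 and B1 and 3.20, 13.2 and 4.75 in H2, H3 and I2. The deficient cultures all lay above the wild-type ones, which were far apart among themselves, with H3 well above H2 and I2. The difference of 2.23 ± 0.44 (adjusted p = 0.0308) was the highest of all member probes, a fold of 4.71. Pspc1 read 4.85, 3.81 and 4.34 against 1.83, 2.25 and 1.89, with little spread in either genotype, and rose by 1.12 ± 0.17 (adjusted p = 0.0184). After normexp background correction, which compresses dim spots, its difference was 0.57. Nono, the partner of both, read 52.6, 34.9 and 40.02 against 37.8, 27.9 and 32.7. Its groups overlapped, and the difference of 0.36 ± 0.20 did not pass (adjusted p = 0.281).

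In bulk RNA of this kind, a change in the mix of cells and a change in RNA per cell cannot be told apart. This holds for each difference given here.

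The other Sfpq probes gave smaller or no differences. Probe 390009 read 1.25, 1.24 and 1.49 against 0.931, 1.13 and 0.922, and its 0.42 ± 0.16 did not pass (adjusted p = 0.147). Probe 350084 carried good flags only in H2 and I2 and was not tested, at 0.538, 0.366 and 0.534 against 0.877, 0.183 and 0.556. The Sfpq rise therefore stands on 1 probe of 3. The sources used here do not say which part of the transcripts each probe reads.

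Among the SR proteins 4 of 11 tested genes rose and 0 fell (30.8% of 13 tested probes, against 4.94% of all tested probes higher). Srsf2, also known as SC35, binds exonic enhancers and sits in nuclear speckles. Its probe 268008 read 19.2, 15.8 and 13.4 in the deficient cultures and 3.50, 3.63 and 4.18 in wild-type cultures. The genotypes were widely separated, and the 2.09 ± 0.18 (adjusted p = 0.00323) had the smallest p of the members, at a fold of 4.25. Srsf3, a small SR protein that also takes part in mRNA export, read 74.2, 51.8 and 66.3 against 24.4, 31.6 and 26.6. C3 was the lowest deficient culture and H3 the highest wild-type one, without overlap, and Srsf3 rose by 1.21 ± 0.19 (adjusted p = 0.0195).

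Srsf6, which binds exonic enhancers, read 28.7, 18.1 and 16.7 against 9.89, 11.7 and 9.50, a difference of 0.99 ± 0.22 (adjusted p = 0.0367). Srsf10, an SR protein that represses splicing when it is dephosphorylated, read 7.53, 4.65 and 4.64 against 2.52, 3.16 and 2.73, a difference of 0.97 ± 0.22 (adjusted p = 0.0367). In both genes C4 stood well above C3 and B1, and every deficient culture lay above every wild-type one. The Srsf10 difference was 0.55 after normexp correction. Srsf5 and Srsf9 had separated groups too but missed the threshold. Srsf5, which favours exon inclusion in many genes, read 86.6, 72.9 and 74.2 against 48.8, 55.2 and 52.2 (0.58 ± 0.15, adjusted p = 0.0558), and Srsf9 read 33.8, 33.9 and 37.9 against 20.4, 26.4 and 22.9 (0.61 ± 0.16, adjusted p = 0.0562).

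The remaining SR genes differed less. Srsf1, the founding member of the family, had separated groups on both probes. Probe 163074 read 30.4, 31.7 and 29.6 against 27.8, 24.0 and 26.0 (0.24 ± 0.15, adjusted p = 0.332). Probe 404067 read 1.88, 1.61 and 1.61 against 0.610, 0.931 and 0.862 but was not tested, since 1 spot of each genotype lacked a good flag. Srsf4, Srsf11 and Srsf12 lay between -0.30 and -0.05 with overlapping groups. Both probes of Tra2b, an enhancer-binding relative of the SR proteins, carried low flags on all 6 arrays, so the arrays gave no readable level for it.

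Tra2a, the other transformer-2 gene, gave opposite signs on its 2 probes. Probe 28026 read 21.7, 17.9 and 18.5 against 15.4, 15.4 and 14.6, every deficient culture above every wild-type one (0.35 ± 0.15, adjusted p = 0.181). Probe 32073 read 7.96, 12.3 and 12.1 against 24.2, 12.5 and 16.2, every deficient culture below, with C3 and H3 nearly level (-0.68 ± 0.27, adjusted p = 0.146). Neither passed the test.

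The Clk kinases phosphorylate SR proteins and so govern where these proteins lie in the nucleus. None of the 3 Clk probes passed the adjusted threshold in limma. After adjustment the test that the labels name passed 0 of all 88 tested member probes, so it does not set the Clk probes apart. All 3 had an unadjusted limma p under 0.05, against 26.2% of all tested probes. Clk2 read 5.05, 5.15 and 5.70 against 3.31, 4.70 and 3.91 (0.43 ± 0.17, adjusted p = 0.157), with the deficient cultures above. Clk3 read 12.9, 11.2 and 11.4 against 21.1, 12.5 and 17.2 (-0.48 ± 0.21, adjusted p = 0.177), and Clk4 read 3.67, 4.11 and 2.89 against 6.51, 3.64 and 5.79 (-0.55 ± 0.24, adjusted p = 0.184). In Clk3 and Clk4 the wild-type culture H3 lay beside the deficient cultures while H2 and I2 stood above them.

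Of the 19 hnRNP genes, 3 rose, 0 fell and 16 did not pass, although 17 of the 19 differences were above 0 (57.3% over all genes). The rises were 13.6% of 22 tested probes, against 4.94% of all tested probes. Hnrnpd, or AUF1, binds AU-rich elements of short-lived mRNAs. Its probe 100099 read 39.2, 25.0 and 25.9 against 8.90, 14.0 and 10.9, with all deficient cultures well above the wild-type ones, a difference of 1.41 ± 0.23 (adjusted p = 0.0224). Its second probe carried low flags on all arrays. Hnrnpm, which binds GU-rich RNA, read 68.2, 33.2 and 39.7 against 18.7, 24.3 and 18.5, a difference of 1.14 ± 0.26 (adjusted p = 0.04) in which C4 stood far above C3 and B1. Hnrnpab, a close relative of Hnrnpd, read 58.5, 42.7 and 48.1 against 21.7, 34.0 and 27.7, a difference of 0.85 ± 0.21 (adjusted p = 0.0449) in which H3 came nearest to the deficient cultures.

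Several other hnRNP genes had the same order of cultures without passing. Both probes of Hnrnpa2b1, which sorts RNAs for transport, had separated groups. Probe 401020 read 52.8, 35.0 and 40.1 against 12.9, 28.2 and 21.2 (1.09 ± 0.28, adjusted p = 0.0541) and probe 114043 read 37.1, 28.1 and 33.7 against 15.7, 26.3 and 20.1 (0.70 ± 0.21, adjusted p = 0.0822). Hnrnpl, a binder of CA-rich RNA, read 61.4, 49.86 and 49.97 against 37.4, 37.1 and 38.2 (0.51 ± 0.15, adjusted p = 0.0784). Hnrnpu, a scaffold protein that also binds chromatin, read 8.54, 16.5 and 10.8 against 4.88, 9.39 and 5.64. Here C3 was the highest culture and H3 overlapped the deficient range (0.85 ± 0.30, adjusted p = 0.112).

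Hnrnpc, Hnrnph1 and Hnrnph2 had separated groups with differences of 0.52 to 0.55 and adjusted p-values of 0.0984 to 0.113. Hnrnpf, a binder of G-runs, differed by 0.20 and 0.38 on its 2 probes, and Hnrnpa3 and Hnrnpk by 0.25 and 0.15. Of the polypyrimidine tract binding proteins, which repress many exons, Ptbp1 read 14.0, 10.1 and 11.7 against 14.4, 10.9 and 12.2 (-0.07 ± 0.18), so the cultures of either genotype covered the same range. Ptbp2, the form of neurons, differed by 0.55 ± 0.26 with overlapping groups (adjusted p = 0.219), and Ptbp3 by 0.40 ± 0.17 (adjusted p = 0.175). Hnrnpr had the lowest difference of the group, -0.10 ± 0.18.

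**Figure D2:**
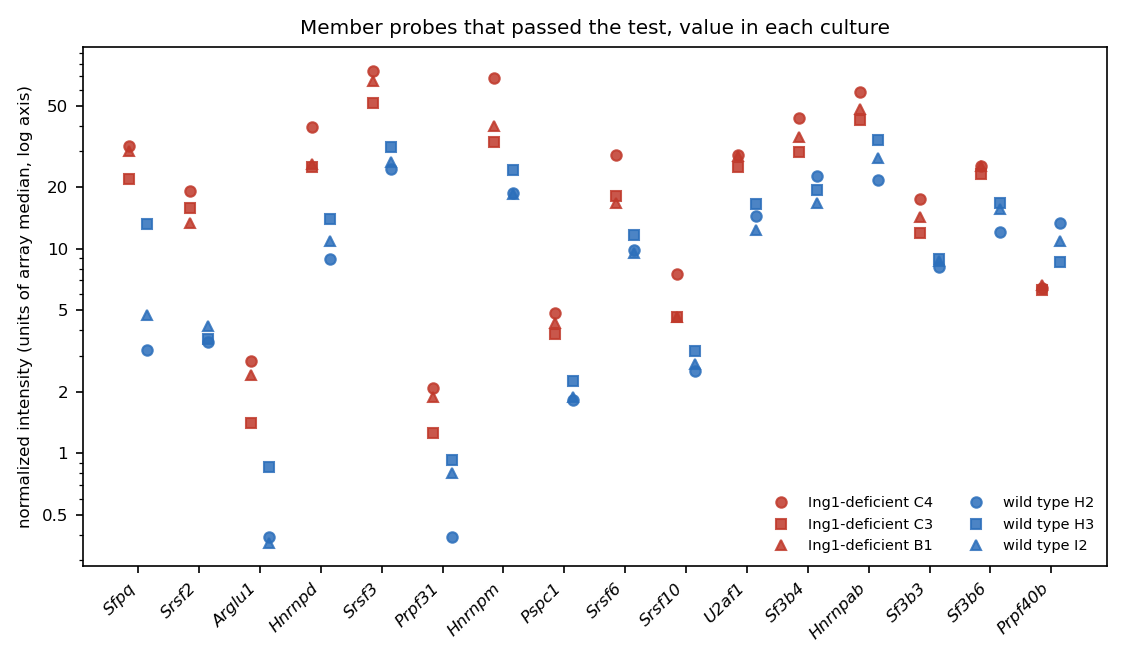
Normalized intensity (units of the array median, log axis) of the 16 member probes that passed the test, in each of the 6 cultures; red marks are Ing1-deficient and blue marks wild type. The red and blue marks do not overlap in any gene, which is no further result, since the probes were picked by the test between genotypes. C4 is the highest culture in 14 of the 16. Over all tested probes C4, C3 and B1 are the highest in 28.5%, 14.6% and 10.9%. These shares are not a like measure, because in the 15 probes that rose a deficient culture is the highest by the way they were picked. H3 is the wild-type culture nearest the deficient ones in 14 of the 16 (47.6% of all).

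At the branch point and 3' splice site, 4 of 10 tested genes rose and 0 fell (30.8% of 13 tested probes, against 4.94% of all). U2af1, the small U2AF subunit that reads the AG at the end of the intron, read 28.7, 25.2 and 28.3 against 14.5, 16.5 and 12.4 and rose by 0.93 ± 0.16 (adjusted p = 0.0258). The cultures of each genotype lay close together and the genotypes were well apart. Its partner U2af2, which binds the polypyrimidine tract, had separated groups on both probes but missed the threshold, at 0.65 ± 0.18 (adjusted p = 0.0625) for probe 241104 and 0.56 ± 0.18 (adjusted p = 0.0967) for probe 180054. Sf1, which binds the branch point first, differed by 0.25 ± 0.21 with overlapping groups.

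The other rises of this group were in SF3B, the part of the U2 particle that holds the branch point. Sf3b4 read 43.6, 29.6 and 35.2 against 22.7, 19.3 and 16.8 (0.88 ± 0.19, adjusted p = 0.0361). Sf3b6, the subunit that contacts the branch point adenosine, read 25.2, 23.2 and 25.3 against 12.01, 16.6 and 15.7 (0.75 ± 0.17, adjusted p = 0.0391). In both genes every deficient culture lay above every wild-type one. Sf3b2 and Sf3b5 did not follow, with overlapping groups at -0.10 ± 0.20 and 0.23 ± 0.17. Sf3b1, the largest subunit, and Sf3a1 carried a good flag on 1 array each and were not tested.

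Sf3b3 was read by 3 probes that did not give the same picture. Probe 261016 read 17.6, 11.96 and 14.2 against 8.16, 8.92 and 8.66 and rose by 0.75 ± 0.18 (adjusted p = 0.0422). Probe 2060 read 12.6, 12.4 and 15.1 against 8.48, 11.2 and 8.18, also with separated groups (0.54 ± 0.18, adjusted p = 0.1). Probe 89022 read 2.32, 2.04 and 2.89 against 4.54, 2.53 and 3.28, with overlapping groups and the opposite sign (-0.49 ± 0.23, adjusted p = 0.225).

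**Figure D3:**
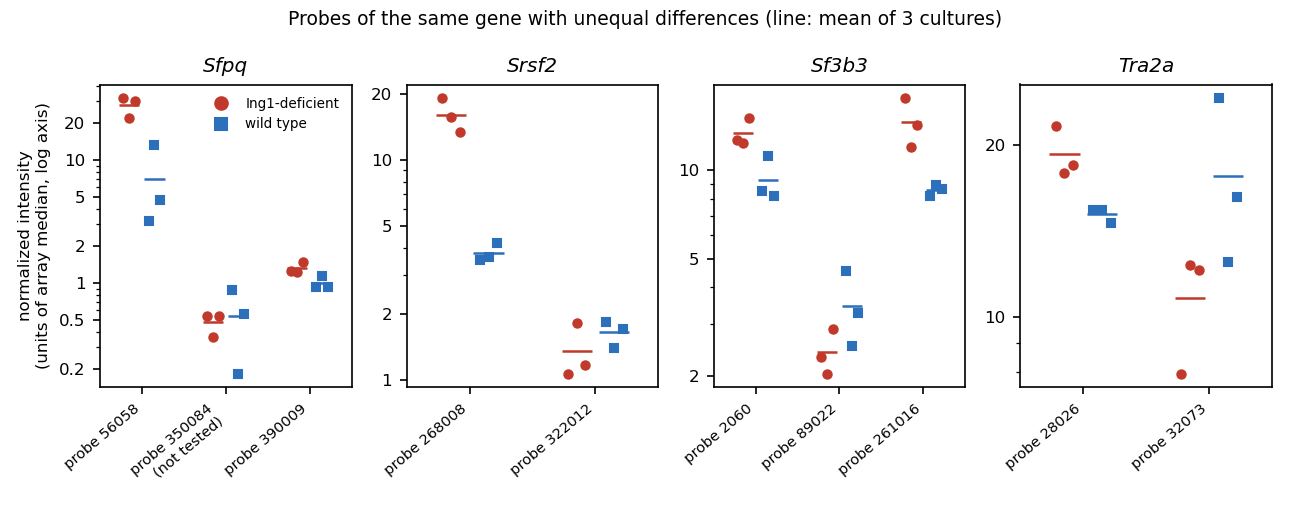
Normalized intensity (log axis, as deposited, with no floor) for each probe of Sfpq, Srsf2, Sf3b3 and Tra2a; red circles are the 3 Ing1-deficient cultures, blue squares the 3 wild-type cultures, and lines their means. In Srsf2, Sf3b3 and Tra2a the probes of one gene differ in sign, and in Sfpq the differences of the tested probes are 2.23 and 0.42.

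Srsf2 had the widest gap between probes. Its second probe, 322012, read 1.07, 1.80 and 1.17 against 1.83, 1.39 and 1.70, with overlapping groups and a difference of -0.32 ± 0.22 (adjusted p = 0.402), which lies 2.40 below that of probe 268008. Gaps over 1 were found in Srsf2, Sfpq (1.82), Sf3b3 (1.24) and Tra2a (1.03), 4 of the 13 member genes with several tested probes. Over the whole array, 144 of 1438 such genes had a gap over 1, so wide gaps were more frequent among the members. The median gap was 0.30 over the 13 members and also 0.30 over the 1438 genes. The tested probes shared their sign in 9 of 13 members (69.2%) and in 849 of 1438 genes (59%). Among the other members with several probes, Prpf19, Snrpd3, U2af2, Hnrnpa2b1 and Prpf4 kept 1 sign across probes, with gaps of 0.08 to 0.39.

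None of the 15 tested Sm and snRNP genes passed in limma. After adjustment the test that the labels name passed 0 of all 88 tested member probes, so it does not set this group apart. Of the 17 tested Sm and snRNP probes, 4 had an unadjusted limma p under 0.05 (23.5%, against 26.2% of all tested probes). The Sm proteins form a ring around each spliceosomal RNA. Snrpd3, one of them, was the highest. Probe 303025 read 41.0, 27.8 and 30.1 against 18.8, 22.8 and 21.1 (0.64 ± 0.19, adjusted p = 0.0724), and probe 65087 read 1.97, 1.99 and 2.10 against 1.34, 1.59 and 1.30 (0.52 ± 0.15, adjusted p = 0.0732). Both probes set the deficient cultures above the wild-type ones.

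Other ring proteins did not separate the genotypes, apart from Snrpb, whose groups did not overlap (0.44 ± 0.16, adjusted p = 0.116). Snrpd2 read 80.5, 54.2 and 62.2 against 76.3, 54.0 and 59.3 (0.05 ± 0.20), and Snrpd1, Snrpe and Snrpg differed by 0.09, -0.03 and -0.39. Of the proteins of single particles, the U1 protein Snrpa read 19.5, 17.3 and 16.5 against 14.7, 14.2 and 15.5, with separated groups, but its 0.26 ± 0.15 did not pass (adjusted p = 0.309). Snrnp70 of U1 differed by 0.11, Snrpc of U1 by 0.27 and 0.09 on its 2 probes, Snrpa1 of U2 by -0.24, and Snrnp200, the helicase of U5, by 0.04, and the groups of these 4 genes overlapped. Snrnp48, a protein of the minor spliceosome, had the lowest difference of all members. It read 3.80, 2.07 and 3.13 against 11.6, 3.70 and 8.65, where H3 fell inside the deficient range, and its -1.30 ± 0.39 did not pass (adjusted p = 0.0791).

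The Prp factors, named after yeast mutants in precursor RNA processing, held 1 rise and 1 fall among 11 genes. The called share was 13.3% of their 15 tested probes, against 6.57% of all tested probes. Prpf31, which joins the U4/U6 and U5 particles and is mutated in a form of retinitis pigmentosa, read 2.08, 1.25 and 1.88 against 0.392, 0.926 and 0.802 and rose by 1.18 ± 0.25 (adjusted p = 0.0331). Its H2 spot carried a low flag and was raised to the floor, so 2 of the 3 wild-type cultures gave a measured level. The probe was tested only because its deficient spots were good. The call was lost with the floor doubled (0.58, adjusted p = 0.217), with a floor of 0.01 (1.36, adjusted p = 0.0748) and after normexp background correction (0.39, adjusted p = 0.075). Over all alternatives the adjusted p ran from 3.66e-06 to 0.239. The low end came from the leading letter of the culture name as a random block, a fit that called 65.9% of all tested probes. Prpf40b, a relative of a yeast U1 protein, read 6.39, 6.31 and 6.65 against 13.3, 8.62 and 10.9 and was the only member probe that fell under the main settings, by 0.74 on the log2 scale (SE 0.18, adjusted p = 0.0475). The 3 deficient cultures lay close together below a spread wild-type group.

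Prpf8, the protein at the heart of the spliceosome, read 13.3, 14.3 and 13.0 against 14.9, 13.3 and 13.8, a difference of -0.05 ± 0.14 with overlapping groups. Prpf19, a ubiquitin ligase, differed by 0.23, 0.26 and 0.41 on its 3 probes, and none passed. Prpf38b lay below the wild-type cultures in every deficient culture without passing (-0.31 ± 0.15, adjusted p = 0.229). Prpf6, of the tri-snRNP, gave 0.17 on one probe and -0.40 on the other.

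Arglu1, a protein rich in arginine and glutamate that acts with nuclear receptors and in splicing, was read by 1 dim probe. It read 2.82, 1.41 and 2.41 in deficient cultures and 0.391, 0.858 and 0.366 in wild-type ones, where only H3 carried a good flag. The difference was 1.70 ± 0.28 (adjusted p = 0.022) with H2 and I2 raised to the floor, so its size and its p depend on that floor. The probe was tested only because its deficient spots were good, and it drops out where good flags are required on all 6 arrays. With the floor doubled to 1.14 the difference was 0.90 and no longer passed (adjusted p = 0.177), and with a floor of 0.01 it was 2.09 and just missed (adjusted p = 0.05). After normexp correction it was 0.62 and passed (adjusted p = 0.0468). Over all alternatives the adjusted p ran from 2.29e-06, again with the leading letter as a random block, to 0.194.

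How firmly each of the 16 calls stood depended on single cultures. Without C4, B1, H2 or I2, 1 member probe passed each time, and it was Srsf2. Without C3, 8 passed: Srsf2, Srsf3, U2af1, Hnrnpd, Hnrnpm, Pspc1, Prpf31 and Arglu1. Without H3, 27 passed, among them all 16. The shares of all tested probes in these fits were 0.266%, 0.0255%, 0.123% and 0.0868% without C4, B1, H2 and I2, 1.99% without C3 and 13.9% without H3. Every 1 of the 16 differences kept its sign in all settings that tested it. The Srsf2 difference ranged from 1.95 to 2.21 with a culture left out, that of Sfpq from 1.80 to 2.82 and that of Prpf40b from -0.90 to -0.59.

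The cultures of a genotype were not alike in these genes. As the median deviation of the 73 tested members from each gene's mean over the arrays, on the log2 scale, C4 stood at 0.32, C3 at 0.06 and B1 at 0.10, against -0.06, -0.19 and -0.18 in H2, H3 and I2. C4 was the highest of the 6 cultures in 47 of 88 member probes (53.4%), against 28.5% of all tested probes. H3 was the wild-type culture nearest the deficient mean in 47 of 88 (53.4%), against 47.6% of all. For the SR proteins, all deficient cultures were above 0 (0.34, 0.20, 0.20) and all wild-type ones below (-0.38, -0.23, -0.30). For the Sm and snRNP genes, C4 and H2 were both above 0, at 0.14 and 0.25, and the genotypes were not separated.

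**Figure D4:**
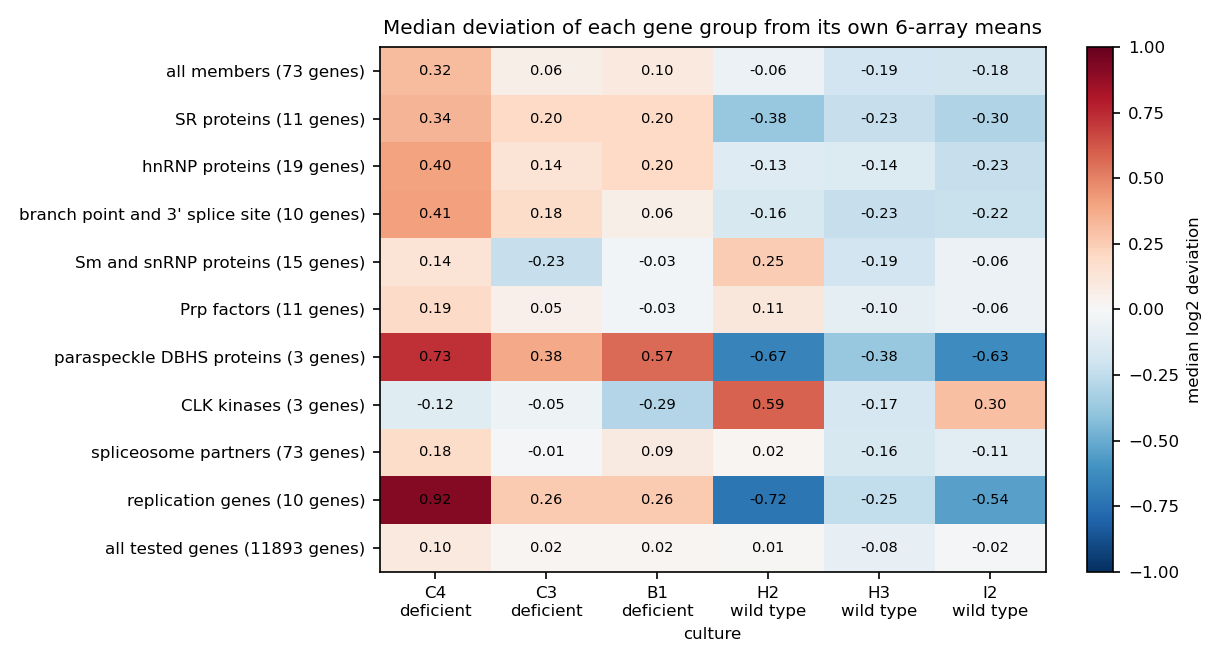
Median log2 deviation of each gene group from its own mean over the 6 arrays, by culture (columns) and group (rows), with the number of genes in brackets; red is above and blue below the mean. The SR, hnRNP, branch point and paraspeckle rows are above 0 in all 3 deficient cultures and below 0 in all 3 wild-type ones, as is the row of replication genes, with C4 at 0.92.

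Markers of dividing cells differed between the genotypes as well, and some macrophage, blood and neuronal markers were higher in deficient cells. The counts of rises below stand beside 4.94% of all tested probes that were higher. Of 10 tested DNA replication genes, such as Mcm2 to Mcm7 and Pcna, 7 rose and 0 fell, with a median of 1.01. Their summed intensity was 86.9 to 135 in deficient and 50.3 to 65.9 in wild-type cultures, with C4 the highest, and Rrm1 never carried a good flag. Of 9 tested macrophage and blood genes 3 rose and 0 fell, with summed intensities of 55.2, 170 and 89.3 in C4, C3 and B1 against 59.3, 37.8 and 25.7 in H2, H3 and I2, and Ptprc never carried a good flag. The highest of these sums was that of C3, and the sums of the genotypes overlapped, with C4 below H2. Neuronal markers rose in 2 of 3 tested genes, Snap25 and Tubb3, with summed intensities of 9.22 to 12.03 against 5.02 to 5.94. Tubb3, as well as Cdc6 of the replication genes and Mrc1 of the macrophage genes, was tested only through the deficient group, with low flags on wild-type arrays. Epithelial and endothelial markers gave 0 calls in limma and 0 at an unadjusted limma p under 0.05 (26.2% of all tested probes). The part of dividing cells or of other cell types in the differences of the splicing genes was not tested.

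Further genes of the splicing pathway were read from a list of partner genes. Of 73 tested partners, 10 rose, 1 fell and 62 did not pass, and 13 of 103 probes were called (12.6%, against the same 6.57% of all probes), with a median difference of 0.20. Tial1, which binds U-rich RNA near 5' splice sites, had the largest rise. Its probe 15098 read 4.21, 3.68 and 4.04 against 0.727, 1.501 and 0.814 (2.05 ± 0.26, adjusted p = 0.0148). All deficient cultures stood well above the wild-type ones, but its second probe gave -0.41 ± 0.24 with overlapping groups.

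Of the SMN complex, which loads Sm rings onto spliceosomal RNAs, 3 of 6 tested genes rose, Gemin4, Gemin6 and Gemin7. Over all tested probes, 4.94% were higher. Smn1 had separated groups without passing (0.51 ± 0.15, adjusted p = 0.0746), and Gemin2 and Gemin5 had overlapping groups at -0.34 ± 0.20 and 0.02 ± 0.19. Gemin4 read 7.54, 5.72 and 5.59 against 1.51, 3.58 and 2.64 (1.36 ± 0.29, adjusted p = 0.0348). Gemin6 rose by 1.08 ± 0.26 (adjusted p = 0.0455), but its probe was tested only through the deficient group, since its H2 spot lacked a good flag. Gemin7 read 49.0, 41.1 and 38.7 against 20.5, 25.0 and 21.8 (0.93 ± 0.16, adjusted p = 0.0255). H3 was the highest wild-type culture in all 3 Gemin genes.

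Of the exon junction complex, which marks spliced mRNA, Eif4a3 rose on 2 of 4 probes (0.88 ± 0.18 and 0.78 ± 0.18), with 0.69 and 0.53 on the others, and all 4 set the deficient cultures above the wild-type ones. Rbm8a rose on 1 of 2 probes (0.90 ± 0.19, and 0.30 ± 0.15 on the other). Ppil1, a spliceosomal prolyl isomerase, rose by 1.43 ± 0.28, Zmat2 by 0.80 ± 0.19, Ewsr1 by 0.75 ± 0.15, and the hnRNP-like gene Syncrip on 2 of 4 probes (0.89 ± 0.16 and 0.77 ± 0.18). Rbm39, a U2AF-related splicing factor, read 5.23, 4.81 and 6.46 against 13.5, 7.54 and 11.1 on probe 56072 and fell by 0.93 on the log2 scale (SE 0.23, adjusted p = 0.0469). Its second probe gave 0.26 ± 0.19 with overlapping groups.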

How the data were processed

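The authors quantified the scanned slides with CodeLink software, per the labels' protocols. The deposited normalized intensity of a spot is its background-subtracted mean in units of the array's median transcript probe, as worked out from the values, and the series value table equals it in 217362 of 217362 values. The genome build is not given in the sources used here, nor are probe positions. Control spots (1260 per array) and 105 to 177 masked probes per array were left out. Genes were named from the platform annotation through gene IDs, using the 21615 probes with 1 symbol; 8 probes with several symbols that include member-like names were not used.

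Values were floored at 0.57, the median over arrays of the lowest percentile among good spots, and taken to log2. The 19575 probes with good flags on all 3 arrays of at least 1 genotype were compared in R 4.3.3 with two-sided limma 3.58.1 (lmFit, then eBayes) and Benjamini-Hochberg adjustment, a step tested on simulated data. With 3 arrays per genotype, their number limits the precision. The floor understates differences of dim probes.

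Named were members past the threshold, the paraspeckle genes, the highest, lowest and brightest of each role, the largest gaps between probes, and partners past the threshold; other members are given for completeness and were chosen after their values were seen. The members and lists were chosen with earlier results of these data known. Alternatives were other background corrections, normalizations, floors, flag filters, variance models and weights, the leading letter of the culture name as a random block, each array left out, the mean of a gene's probes, and the Student test that the labels name, called the methods' t-test.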

Additional observations from a re-analysis of the deposited data

How the results depend on the processing

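The median difference of the members kept its direction in every alternative, at 0.14 to 0.31 against 0.25. Of the alternatives, the variance trend and the lack of a flag filter could not change it. The counts of called probes, 16 of members and 13 of partners, moved more. They were, for members and partners, 11 and 9 after normexp correction, 9 and 7 after quantile normalization, 9 and 8 after cyclic loess, 5 and 3 with a floor of 0.01, 2 and 2 with a floor of 1.14, 17 and 13 with good flags required on all 6 arrays, and 20 and 15 with a variance trend and robust fitting. In that order these settings called 2.88%, 3.77%, 3.82%, 1.4%, 0.976%, 6.93% and 7.51% of all tested probes, against 12.5%, 10.2%, 10.2%, 5.68%, 2.27%, 21% and 22.7% of member probes. Without a filter on flags, limma called 0 and 0 (20 of 34862 probes in all), with 41 and 34 at an unadjusted p under 0.05. Array weights gave 53 and 47, with 60.2% of member probes and 41.7% of all probes called, where 1 array, I2, took a weight of 13 and the estimation did not converge. The leading letter as a random block gave 69 and 74, with an estimated correlation of -0.886, and called 78.4% of member probes and 65.9% of all. Leaving out 1 array gave 1 to 27 member probes and 0 to 20 partner probes. The partner count was 0 without C4, B1, H2 or I2, with 26 to 29 at an unadjusted p under 0.05, and 2 without C3. The methods' t-test gave 0 and 0 after adjustment, 36 and 30 unadjusted, and 9 and 4 unadjusted with a ratio over 2 or under 0.5. The cause of these shifts was not tested. The unadjusted counts in this paragraph stand without the share of all tested probes, so they are no result about the members or partners. Srsf2 passed in 15 of 17 alternatives, Pspc1 in 11, Hnrnpd, Srsf3 and U2af1 in 10, and Sfpq in 6. These tallies include the array weights and the leading letter, under which all 16 main calls passed, so those passes do not set genes apart. No paired analysis was possible because the genotypes share only replicate number 3 and no leading letter. Signal limits what can be said of dim genes: 11 of 99 member probes were not tested, and no level is given for Tra2b, Sf3b1, Sf3a1 or Snrnp35. Labels of single cultures do not name litters, so p-values measure the spread between these embryos.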
